A study of Mus musculus with 20 samples.

Results

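The subject is a set of 10909 narrow stretches of the mouse genome that held a peak in every well-sequenced library of an ATAC-seq experiment. ATAC-seq inserts sequencing adapters into DNA that the transposase can reach, so a peak marks accessible chromatin. The cells were C2C12, an established mouse myoblast line that fuses into myotubes when it is made to differentiate. Wild-type cells (WT, 2 replicates) and 2 Setd2 knockout lines (KO line 1 and KO line 2, 1 library each per condition) were profiled at D0, at D1 and at D5. The later days had a control medium arm (CTL) and a methionine restriction arm (MR), so there are 20 libraries in 10 groups. Per its title, the study is about methionine availability and H3K36 trimethylation in differentiating cells. The labels used here give neither the methionine level, nor the length of restriction, nor whether the WT replicates were separate cultures, so the p-values measure only the spread between these samples. Each KO line may carry differences of its own, and WT is 1 parental population, so genotype and line cannot be told apart.

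The members were chosen by the peak calls themselves. All 20 deposited broad peak lists were merged at 1 bp of overlap, which gave 101352 regions from 787806 peaks. A member is a merged region shorter than 1500 bp with a peak in each of 18 libraries; KO line 1 at D5, in CTL and in MR, was left out of the rule because those lists hold 644 and 1881 peaks against 20847 to 69881 in the others. Of 11144 regions called in all 18 libraries, 10909 were narrow and 235 were wide, and 90151 narrow regions were called in fewer. A peak anywhere in the region counted, so peaks of different libraries need not cover the same bases. When peaks had to cover 50% of the region in each of the 18 libraries, 1901 members remained. The longest members lay at Polr2a (1499 bp), Parp11 (1497 bp) and Plec (1495 bp), and the shortest regions just outside the limit at Rab11fip4 (1501 bp), Fam20a (1503 bp) and Fem1c (1503 bp). Members were 112 to 1499 bp long with a median of 533 bp, and narrow regions called in fewer libraries had a median of 153 bp. A member joins the peaks of at least 18 lists, so its greater length is no result separate from the merging.

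Chromatin that stays open through differentiation is, as textbook background, made up mainly of promoters of housekeeping genes and of insulator or constitutive enhancer sites. Such promoters tend to be rich in CpG and in short elements bound by ubiquitous factors, among them the CCAAT box read by the trimeric factor NFY, the GC box read by SP proteins and the ETS site. Setd2 is the enzyme that places most H3K36 trimethylation, a mark of transcribed gene bodies, and it takes its methyl group from S-adenosylmethionine, which cells make from methionine.

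Sequences of 6 members at gene starts show what the promoters in the set look like and are referred to again with their values. Each line gives the 150 bases just before the annotated start, 5′ to 3′ on the gene's strand (RefSeq, build GRCm38.p6), in lower case with the NFY letters CCAAT (or ATTGG on the other strand) in capitals. Chd6 (chr2:161109087-161109236, minus strand) is among the 10 strongest members, Pacsin2 (chr15:83464607-83464756, minus) and Map2k3 (chr11:60931904-60932053, plus) are among the 10 members that rose most by D5, Fggy (chr4:95557357-95557506, plus) stood higher in MR at D5, and Hdac2 (chr10:36974394-36974543, plus) and Gpr157 (chr4:150087353-150087502, plus) stood lower in MR at D5.
Chd6: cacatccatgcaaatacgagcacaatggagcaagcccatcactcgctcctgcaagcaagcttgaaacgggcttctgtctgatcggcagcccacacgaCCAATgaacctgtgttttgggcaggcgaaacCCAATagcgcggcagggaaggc
Pacsin2: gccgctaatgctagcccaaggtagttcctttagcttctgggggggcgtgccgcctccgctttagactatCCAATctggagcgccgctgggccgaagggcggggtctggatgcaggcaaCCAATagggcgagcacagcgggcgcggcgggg
Map2k3: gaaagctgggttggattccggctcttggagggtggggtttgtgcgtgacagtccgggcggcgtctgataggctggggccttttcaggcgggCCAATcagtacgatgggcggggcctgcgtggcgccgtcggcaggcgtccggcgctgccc
Fggy: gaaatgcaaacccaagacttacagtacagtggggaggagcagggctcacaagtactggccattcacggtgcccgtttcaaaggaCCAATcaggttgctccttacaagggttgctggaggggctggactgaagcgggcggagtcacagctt
Hdac2: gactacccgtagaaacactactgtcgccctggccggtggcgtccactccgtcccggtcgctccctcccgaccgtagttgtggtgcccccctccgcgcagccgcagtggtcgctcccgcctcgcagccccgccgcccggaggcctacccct
Gpr157: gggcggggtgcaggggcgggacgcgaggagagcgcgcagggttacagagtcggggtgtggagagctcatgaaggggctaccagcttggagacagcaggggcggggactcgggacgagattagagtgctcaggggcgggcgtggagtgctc
Chd6 and Pacsin2 hold 2 matches each in this stretch, Map2k3 and Fggy hold 1 each, and Hdac2 and Gpr157 hold 0. The nearest match of Chd6 begins 22 bases before the start and its other match 53 bases before it; those of Pacsin2 begin 32 and 81 bases before, that of Map2k3 59 and that of Fggy 66 bases before. The Hdac2 stretch was the richest of the 6 in G and C (72.7%) and the Fggy stretch the poorest (55.3%).

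Members lay at gene ends far more often than other narrow regions did. Within 1 kb of either end of a protein-coding gene lay 4780 members (43.8%), elsewhere inside a gene 3615 (33.1%), and between genes 2514 (23.1%). Of narrow regions called in fewer libraries, 12.3% lay at a gene end, 47.0% elsewhere in a gene and 40.7% between genes. The wide regions called in all 18 libraries were at a gene end still more often (60.4%). The rule did not use position, but no test was made, because regions are not replicates.

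The share holding an annotated gene start rose stepwise with the number of libraries. A start lay inside 0.698% of narrow regions called in 0 to 1 of the 18 libraries, 1.69% of those in 2 to 5, 4.58% of those in 6 to 11 and 14.3% of those in 12 to 17, against 37.1% of members (3949 of 10647 on chromosomes with starts in the table used). Regions called in more libraries are also longer, and the part of length in this was not tested. At the other extreme, 35.5% of members were more than 10 kb from any protein-coding end, against 60.9% of narrow regions in fewer libraries, and 566 members (5.19%) were more than 100 kb away. Within 1 kb of a tRNA gene lay 44 members, and within 1 kb of a miRNA gene 70.

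**Figure D1:**
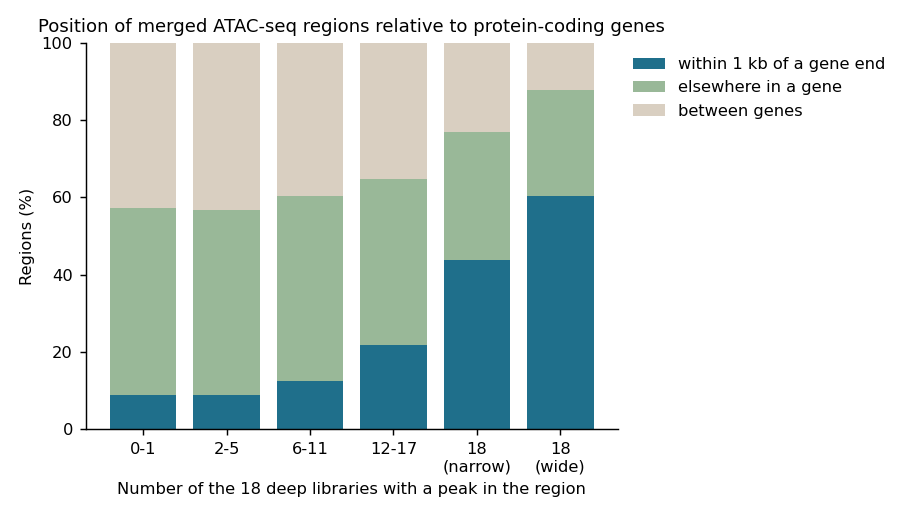
Share of merged regions (vertical axis, %) within 1 kb of a protein-coding gene end, elsewhere in a gene or between genes, by the number of the 18 deep libraries with a peak (horizontal axis). The gene-end share is 8.85% in regions of 0 to 1 libraries, 43.8% in the members and 60.4% in wide regions.

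The members held a larger share of the strongest peaks than of all peaks in each list. They made up 16.7% to 55.7% of the peaks of the 18 lists but 67.5% to 93.1% of the strongest 10% of each, ranked by fold enrichment. A peak call depends on the same signal, and the rule asked for a call in all 18 lists. The larger share is therefore no result separate from the rule. The fold enrichment is the authors' value per peak, of pileup over local background. Its median over the members ran from 4.05 (WT D5 CTL, replicate 2) to 9.39 (KO line 1, D1 CTL), its lowest value in any library was 2.19 and its highest 34.2. The median −log10 p over the members was 9.56 (KO line 2, D5 MR) to 39.5 (KO line 1, D0). Between 1.91% and 14.1% of members held more than 1 peak of a given library; the highest peak was then taken.

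To compare libraries, each of the 11144 regions called in all 18 was ranked by fold enrichment within its library, and the rank is given as a percentile from 0 (weakest) to 100 (strongest). Strength hardly followed position: the median over libraries was 49.0 for members at gene ends, 50.1 for those in gene bodies, 51.1 for those between genes and 53.6 for the 566 members more than 100 kb away. Of the 764 members with a median in the top 10%, 378 lay at gene ends, which is 7.91% of gene-end members against 7.003% of all members. Gene-end members were longer (median 614 bp) than those in gene bodies (475 bp) or between genes (464 bp).

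Of the 10 strongest members 4 lay at gene ends. The highest medians were those of members by Csrp1 (99.97; chr1:135752864-135753251, 635 bp from an end of this gene for a LIM-domain actin-binding protein), Sema5a (99.94; chr15:32778624-32779220, 82283 bp from the gene's nearest end), Sdc2 (99.89; chr15:32920500-32921028, at an end of the gene for the proteoglycan syndecan 2), Slc45a4 (99.88), Actb (99.87; 12760 bp from the β-actin gene), Tango6 (99.86), Pick1 (99.85), Zfp286 (99.81), Pxmp4 (99.8) and Chd6 (99.77). Those at gene ends were the members by Csrp1, Sdc2, Pxmp4 and Chd6. Sema5a had the smallest range of any member, from 99.78 to 100 over the 18 libraries, and Csrp1 ranged from 99.23 to 99.99. Slc45a4 was less even: it stood at 85.0 and 89.9 in WT D5 CTL and at 94.3 or above in the other 16 libraries. Chromosome 15, which holds Sema5a, Sdc2, Slc45a4 and Pick1, had 80 of its 733 members (10.9%) in the top 10% by median, against 7.003% of all members.

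The weakest members included long ones. The lowest median was that of a 950 bp region 8895 bp from Zswim4 (0.0897), followed by a pair of regions of 1242 and 1082 bp nearest to Frmd8 that lie over or across the end of the long non-coding RNA gene Neat1 (0.229 each), by an 879 bp region inside the Ptma gene (0.332) and by a 438 bp region at Bloc1s1 (0.341). Neat1 RNA is the scaffold of nuclear paraspeckles, and Ptma encodes prothymosin alpha. No library put either Neat1 region above 12.6, and the Ptma region reached 35.5 in WT D5 CTL replicate 1.

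Few members held 1 rank throughout. The range of a member's percentile over the 18 libraries had a median of 58.6 points; it was within 20 points for 371 members (3.40%), and 93 members were in the top 10% of every library while 5 were in the lowest 10% of every library. The spread between samples of a group sets what can be seen. Between WT replicates a member's rank differed by a median of 5.04 to 9.17 points, and between the 2 KO lines in the same condition by 14.9 to 18.7 points (rank correlation across members 0.848 to 0.942 for WT and 0.466 to 0.636 for KO, a description over regions that share libraries). The KO D0 pair was the most unlike.

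The 2 shallow libraries entered the merging of regions but not the choice of members, and they held members more often than other narrow regions. In KO line 1 at D5, 583 members (5.34%) had a peak in CTL and 1563 (14.3%) in MR, with 283 in both, against 39 (0.0433%) and 267 (0.296%) of the 90151 narrow regions called in fewer of the 18 libraries. Members were 91.0% of the CTL list's peaks and 83.4% of the MR list's. The share rose with strength: of members with a median percentile under 20, 0.501% were called in CTL and 2.63% in MR, and of those at 80 or more, 18.1% and 38.0%. Position made little difference, with 16.1% of gene-end members and 13.3% of members between genes called in MR. When a peak had to cover 50% of the merged region, these shares fell to 0.119% and 0.706%.

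**Figure D2:**
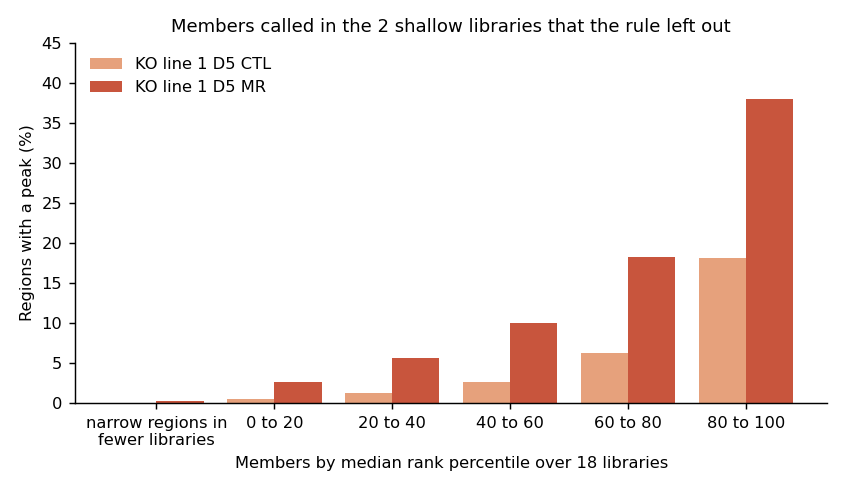
Share of regions with a peak (vertical axis, %) in KO line 1 at D5, in CTL and in MR, for narrow regions called in fewer of the 18 libraries (left) and for members in 5 bins of their median rank percentile (horizontal axis). The bars rise from 0.501% to 18.1% in CTL and from 2.63% to 38.0% in MR.

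Gene classes differed in how often they carried a member. Of 21887 protein-coding genes, 5452 (24.9%) had a member within 1 kb of an end. The share was 14 of 20 for aminoacyl tRNA synthetases, 18 of 30 for the Mediator complex, 33 of 56 for translation initiation factors, 15 of 26 for RNA polymerase subunits, 24 of 45 for the spliceosome, 40 of 84 for cytosolic ribosomal proteins, 34 of 87 for respiratory complex subunits, 14 of 39 for the proteasome, 27 of 78 for mitochondrial ribosomal proteins and 129 of 397 for zinc finger genes of the Zfp series. It was 0 of 1110 for olfactory receptors and 2 of 53 for keratins. Ends of neighbouring genes can share a member, so genes are not independent here. The highest median percentile within a class was 99.3 for Zfp157 among the zinc finger genes, 99.3 for Polr3k among polymerase subunits, 99.1 for Mrpl41 among mitochondrial ribosomal proteins, 97.2 for Iars among synthetases and 96.2 for Rpl27 among cytosolic ribosomal proteins.

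A member lay at an end of 7 of 14 genes of the methionine cycle and of 6 of 11 genes on a list drawn up for H3K36 methylation. Srm (spermidine synthase) was near the top at 97.8 with a range of 7.92 points, Mtr (methionine synthase) stood at 94.3, Amd1 at 83.1 and Mat2a (the S-adenosylmethionine synthetase) at 26.7. On the H3K36 list the demethylase genes Kdm4b (96.6) and Kdm4a (95.5) were strong, and Setd2 (45.6), Ash1l (44.7) and Nsd3 (44.5) were near the middle. Setd3, which the list also held, stood at 47.0. The Setd2 member at the gene's end (chr9:110531909-110533230) passed no test; an open promoter does not check a knockout, and the deleted part is not given in the labels used here. Amino acid response genes had a member in 6 of 15 cases (Atf5, Psat1, Sesn2, Chac1, Trib3, Cebpb), with medians between 18.3 and 58.2.

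Markers of the labelled cell type carried members about as often as protein-coding genes in all (24.9%). A member lay at an end of 3 of 10 myoblast markers, namely Chrna1 (77.0), Des (62.6) and Cdh15 (12.7), of 1 of 16 muscle fibre markers (Mylpf, 53.2), of 1 of 6 fibroblast markers (Postn, 72.4) and of 1 of 5 blood markers (Spi1, 11.2). Markers of neurons, endothelium, epithelium, liver, fat and pluripotent cells had 0. These are peaks and not transcript levels, and regions that open or close with differentiation are left out by the rule.

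Shifts in rank were tested with limma on normal scores of the ranks, with the 18 deep libraries as samples and Benjamini-Hochberg adjustment over all 11144 regions (threshold 0.05). A score difference of 1 is 1 standard deviation of the ranks in a library. A higher rank means more signal relative to the other open regions of the same library, not more signal in absolute terms. The rule used only the presence of peaks, which every tested region has in all 18 libraries, so all 10909 members could be tested.

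The D5 contrast called more members than any other, though with ranks of −log10 p it called 1201 against 1353 for genotype. In WT, D5 against D1 over both media, 907 members rose and 823 fell (15.9% of members against 16% of all regions tested; among all regions 8.59% rose and 7.43% fell). Pacsin2, whose promoter is printed above and whose protein shapes membranes in endocytosis, stood at 16.99, 36.9, 18.9 and 33.0 in the 4 WT D1 libraries and at 90.4, 91.3, 87.1 and 90.2 in the 4 WT D5 libraries (score difference 1.92 ± 0.307 SE, limma adjusted p = 0.00199). Every D5 rank was above every D1 rank. Its fold enrichment overlapped, at 5.90 to 7.52 at D1 and 6.06 to 9.36 at D5. Map2k3, the kinase upstream of p38, went from 9.76 to 23.5 at D1 to 71.1 to 84.8 at D5 (1.82 ± 0.279, limma adjusted p = 0.0017). Gapdh, the glycolytic enzyme, went from 9.22 to 52.2 to 69.9 to 89.4, at a member that holds its start (limma adjusted p = 0.00589). The fold enrichments of Map2k3 (5.49 to 5.93 at D1, 4.76 to 8.32 at D5) and Gapdh (5.69 to 7.14, 5.87 to 7.51) overlapped too. Irf2bp2, Zfp341 and Aldh3b1 moved up by 59.4 to 63.0 points on average, also without overlap of the WT groups in rank.

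The largest fall was inside Xrcc5, which encodes the Ku80 subunit of the DNA end-joining machinery. This member (chr1:72309723-72310246, 2306 bp from the gene's end) stood at 96.9 to 99.6 in WT at D1 and at 4.73, 25.4, 27.6 and 27.3 at D5 (score difference −3.15 ± 0.258 SE, limma adjusted p = 2.93e-05). Its fold enrichment fell from 18.3 to 20.3 at D1 to 3.03 to 5.09 at D5. Regions by Fhit, Fam131c, Niban2, Mcph1, Ror1, Snx2, Crhbp, Lsm3 and Nwd1 fell by 66.3 to 72.1 points on average, with no overlap between the 4 D1 and the 4 D5 libraries; of these 9 regions only the one at Nwd1 lay at a gene end.

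Members that rose and fell by D5 lay in different places. Of the risers 42.7% were at gene ends and of the fallers 25.4%, against 43.8% of members; risers had a median length of 671 bp and fallers of 388 bp. AP-1 genes, whose products form the Jun and Fos factors, had a member at 6 of 9 genes, and 3 rose (Jun, score difference 0.92; Fosl2, 1.39; Jund, 1.14; limma adjusted p = 0.0149, 0.00562 and 0.00589) while 0 fell. Of 127 members at Zfp genes 2 rose (Zfp687, Zfp775) and 12 fell, among them Zfp120 (−1.30, limma adjusted p = 0.00209); over all members 8.31% rose and 7.54% fell. Of 39 cytosolic ribosomal protein members 0 rose and 4 fell (Rpl34, Rps18, Rpl31 and Rps26), of 34 respiratory complex members 0 rose and 4 fell (Uqcrc2, Atp5md, Uqcrh, Ndufb2), of 27 mitochondrial ribosomal protein members 3 rose and 1 fell, and of 15 polymerase subunit members 2 rose and 3 fell. Mylpf, the fast skeletal myosin light chain, rose (0.75, limma adjusted p = 0.0436).

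The D5 shift was measured again in KO line 2, whose libraries were not part of that contrast. Of the 907 risers, 79.8% were also higher at D5 than at D1 in CTL and 67.4% in MR, against 51.7% and 51.9% of all members; of the 823 fallers 77.8% and 71.5% were lower, against 48.3% and 48.1%. The median change of the risers was 13.8 points in CTL and 5.43 in MR. The Pacsin2 promoter went from 47.8 to 95.4 in CTL and from 85.8 to 89.1 in MR. The Zfp341 member went from 53.0 to 6.10 in CTL, opposite to WT, and from 9.21 to 11.9 in MR. With 1 library per condition these KO values have no replicate check. Setting the KO lines as blocks, because a line is the same cells across conditions, brought the WT count to 3214. This block does not act on the WT libraries and changes only the spread that all groups share. Without 1 of the 8 WT libraries at D1 or D5 the WT count was 614 to 1081.

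Between genotypes, 537 members stood higher in KO and 540 lower, over D0, D1 CTL and D1 MR (9.87% of members against 9.75% of all regions tested, of which 4.88% were higher and 4.87% lower). The fit took the libraries of a KO line as separate samples. Deviations of a line correlated at 0.417 to 0.540 across conditions, so the genotype p-values understate the spread between lines. The largest difference was a 357 bp region far from any gene, chr5:119232931-119233287, 437247 bp from the nearest end, that of the limb and heart regulator Tbx3. Its percentile was 2.64 and 4.86 in WT D0, 4.46 and 10.4 in WT D1 CTL and 4.29 and 11.3 in WT D1 MR, and 80.2 and 71.3 in KO D0, 97.1 and 75.7 in KO D1 CTL and 89.6 and 88.8 in KO D1 MR (score difference 2.66 ± 0.24 SE, limma adjusted p = 3.88e-05). At D5, outside the contrast, KO line 2 stayed at 74.3 and 81.6, and WT was itself at 80.5 and 63.7 in CTL and at 37.3 and 13.1 in MR. The rank was therefore high in WT D5 CTL as well.

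Chst7, a chondroitin sulfotransferase gene on the X chromosome, kept its difference at D5. Its member (chrX:20059333-20059885, holding the gene start) stood at 4.35 to 16.8 in the 6 WT and 67.3 to 87.4 in the 6 KO libraries of the contrast (limma adjusted p = 2e-04), and at D5 at 0.381 to 13.1 in the 4 WT libraries and 66.7 and 90.02 in KO line 2. Hs3st1, a heparan sulfate sulfotransferase gene, went from 6.65 to 35.8 in WT to 50.1 to 96.8 in KO. Regions in or nearest to Ccdc171, Tmem17, Gas6, Fmnl2, Kcnh2, Ebf1 and Fam189a2 were also higher in all 6 KO than in all 6 WT libraries.

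Lower in KO by the most was a region inside Lhpp, a phosphatase gene. The member chr7:132700127-132700480 stood at 70.8 and 67.4 in WT D0 and 83.7 to 95.0 in WT D1, and at 0.911 and 1.10 in KO D0 and 4.25 to 20.7 in KO D1 (score difference −2.56 ± 0.18 SE, limma adjusted p = 3.41e-06). At D5 WT stood at 73.0 to 92.0 and KO line 2 at 1.15 and 13.3, again apart. Pitpnm2, Npl, Sv2b, Phlda1, Rin3, 1700056E22Rik, Gse1 and Chd7 were lower in all 6 KO libraries too. The start of Zim1, an imprinted zinc finger gene, differed by line: WT was at 95.7 to 99.9, KO line 1 at 0.902, 7.91 and 18.2, and KO line 2 at 47.1, 92.1 and 35.2.

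Members that shifted with genotype were less often at gene ends. Of them, 18.8% of the members higher in KO and 22.6% of those lower lay at gene ends, against 43.8% of all members; as shares of place, 2.11% of gene-end members were higher and 2.55% lower, against 8.03% and 6.48% of members between genes. Over all members 4.92% were higher in KO and 4.95% lower. Of 34 respiratory complex members 2 were higher (Atp5g2, Ndufb5) and 1 lower, of 39 cytosolic ribosomal protein members 0 and 2, of 15 polymerase subunit members 1 (Polr2h) and 0, of 6 AP-1 members 1 (Jund) and 1 (Junb), of 6 amino acid response members 1 (Cebpb) and 0, and of 127 Zfp members 1 and 6. Lower were also the myoblast intermediate filament gene Des (−1.37, limma adjusted p = 0.00179) and the H3K36 methyltransferase gene Ash1l (−1.23, limma adjusted p = 0.00591), 1 of 3 and 1 of 6 members of their lists. The Setd2 member did not pass (−0.44, limma adjusted p = 0.142).

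In KO line 2 at D5, which the contrast did not use, the 537 members that were higher in KO had a median of 26.3 points above WT D5 and the 540 lower ones 32.0 points below, against 0.648 points for all members. The same line at D0 and D1 helped to choose these members, so its D5 values are no separate check of genotype. In both media, against the mean of the WT replicates, 389 of the 537 were higher and 430 of the 540 lower, against 3572 and 3387 of all 10909 members. By chromosome, KO line 2 minus WT had a median of −7.15 points on chromosome 14, −6.37 on 17, −5.18 on 10 and 5.28 on 15, and KO line 1 minus WT −5.44 on chromosome 12; genotype rises and falls were 61 and 30 on chromosome 15 and 9 and 34 on chromosome 17. The part of these chromosome-wide offsets in single shifts was not tested. With each library centred per chromosome 1041 members were called, of which 948 were among the 1077. With the KO lines as blocks, which takes the difference between the lines out of the spread, the count was 2286 (1112 higher, 1174 lower). Without any 1 of the 6 WT libraries of the contrast it was 568 to 702.

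Between media in WT at D5, 299 members stood higher in MR and 204 lower (4.61% of members against 4.62% of all regions tested, of which 2.71% were higher and 1.91% lower). The largest rise was at a 1391 bp region chr2:152903648-152905038, 6243 bp from Mylk2, the skeletal muscle myosin light chain kinase gene. It stood at 10.98 and 13.8 in WT D5 CTL and 90.03 and 89.6 in WT D5 MR (score difference 2.43 ± 0.331 SE, limma adjusted p = 0.00568). Elsewhere it was at 64.5 and 61.3 in WT D0, 19.2 and 12.02 in WT D1 CTL, 42.3 and 47.0 in WT D1 MR, and at 85.2 in CTL and 82.8 in MR in KO line 2 at D5. The 2 values of KO line 2 differed by less than those of WT.

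Other members that were higher in MR lay mostly away from gene starts. Those by Anks1, Samd4, Trio, Gm42372, Ddah1, Ifi27, Gli2 and Ywhaq were 69.1 to 74.1 points higher. Fggy, a carbohydrate kinase gene whose promoter is printed above, was at 19.1 and 14.9 in CTL and 87.5 and 85.9 in MR (limma adjusted p = 0.0417); its other 14 values were between 65.7 and 99.8, so WT D5 CTL was the condition that stood apart.

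Lowest in MR was Ankle1, which encodes a nuclease. Its member (chr8:71406701-71406960, 715 bp from the gene's end) was at 86.7 and 78.3 in WT D5 CTL and at 1.69 and 0.713 in WT D5 MR (score difference −3.23 ± 0.409 SE, limma adjusted p = 0.00568). MR was below CTL in other strata too: 36.7 and 50 against 86.8 and 88.9 in WT D1, 35.7 against 65.3 in KO line 1 and 70.6 against 93.3 in KO line 2 at D1, and 30.9 against 51.7 in KO line 2 at D5. The member at the start of Hdac2, a histone deacetylase gene, was at 87.3 and 74.7 in CTL and 11.1 and 17.03 in MR (limma adjusted p = 0.0186). The member at an end of Myc, the growth regulator, was at 91.9 and 75.8 in CTL and 16.1 and 21.9 in MR (limma adjusted p = 0.027), and between 2.75 and 35.3 in the 14 libraries of other groups. In fold enrichment the differences were smaller: Hdac2 had 4.931 to 6.053 in CTL and 4.205 to 4.304 in MR, and Myc 4.978 to 6.59 and 4.491 to 4.528. The median over the members was 4.30 and 4.05 in the CTL lists and 6.24 and 5.77 in the MR lists. Pdp1, Gpr157, Bicral, Lpcat3, Ly86, Zfat and Id2 also fell, by 62.8 to 74.0 points.

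**Figure D3:**
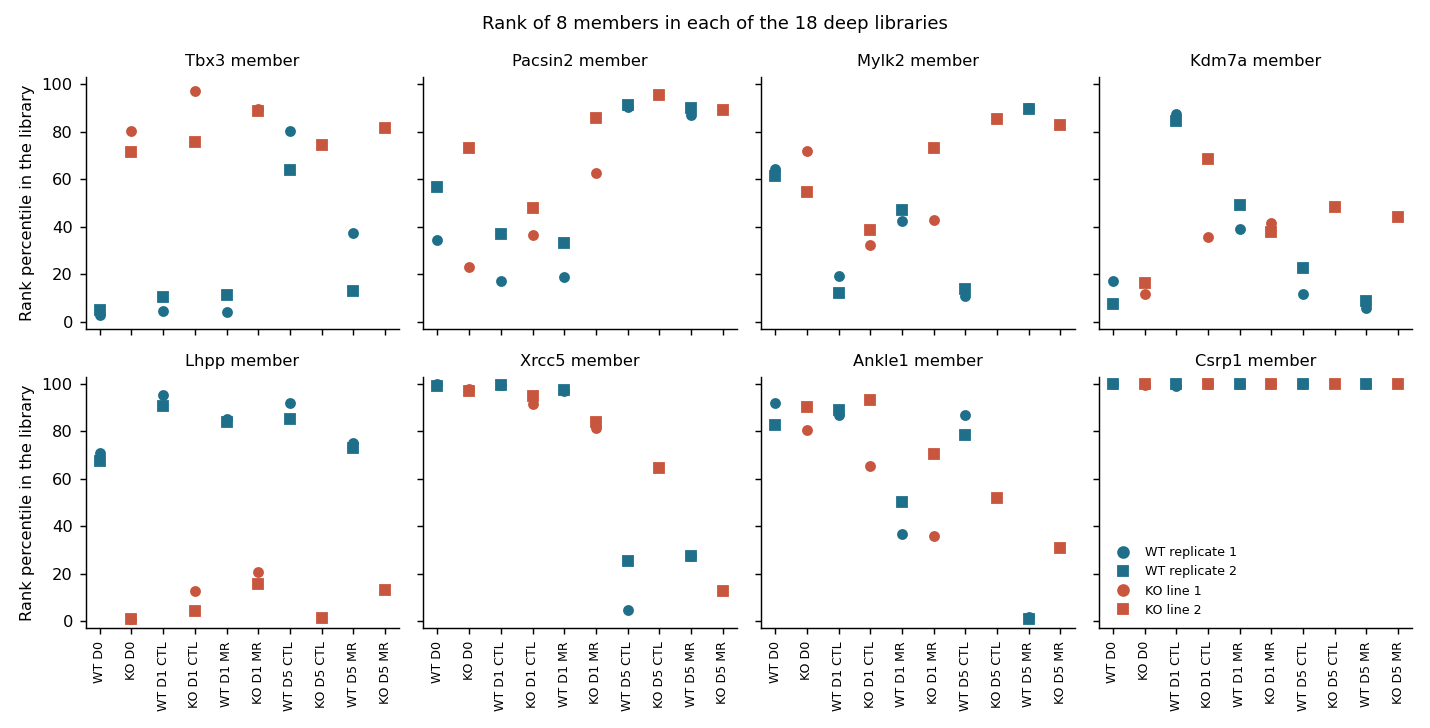
Rank percentile (vertical axis) of 8 members in each of the 18 deep libraries, by group (horizontal axis); colour gives the genotype and symbol the WT replicate or KO line. Tbx3 and Lhpp separate the genotypes at D0 and D1, Pacsin2 and Xrcc5 change by D5, Mylk2 and Ankle1 change with MR in WT at D5, Kdm7a is higher in D1 CTL than at D0, and Csrp1 stays between 99.23 and 99.99.

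Rises and falls in MR at D5 in WT differed in place, and in the opposite sense to D5. Both contrasts use the WT D5 CTL libraries, with opposite sign, so the opposite sense is not a separate result. Of the risers 21.4% were at gene ends and of the fallers 53.4%; the risers had a median length of 434 bp and the fallers 598 bp. Over all members 2.74% rose and 1.87% fell. Of 39 cytosolic ribosomal protein members 2 rose (Rplp0, Rpl18) and 0 fell, of 34 respiratory complex members 2 (Ndufa2, Uqcrq) and 0, of 18 Mediator members 2 (Med29, Med8) and 1 (Med13l), of 33 initiation factor members 1 (Eif4a1) and 0, of 27 mitochondrial ribosomal protein members 0 and 2 (Mrpl38, Mrpl1), of 127 Zfp members 3 and 1, and of 2 keratin members 1 (Krt88) and 0. No member of the methionine cycle or the amino acid response list passed. In libraries outside the contrast, 75.9% of the risers were higher in MR at D1 in WT and 80.3% at D1 in KO, against 51.3% and 52.0% of all members, and 73.0% and 76.5% of the fallers were lower. In KO line 2 at D5 the shares were 49.2% and 48.0%, against 50.9% and 49.0% of all members, with medians of −0.18 and 0.417 points.

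The differences of the MR shift between days and between genotypes were tested directly. For the difference between the MR shifts at D5 and D1 in WT, 0 members passed in limma (0.0% of all regions; 1239 at an unadjusted p under 0.05, lowest adjusted p = 0.112; 5 when percentiles replaced scores). For the difference between genotypes at D1, 0 passed (0.0% of all regions; 537 unadjusted, lowest limma adjusted p = 0.792). For the difference between KO line 2 and WT at D5, in a contrast added after the data were seen, 11 members passed, 6 above 0 and 5 below it (0.0987% of all regions tested, with 0.0538% above and 0.0449% below; 343 with the KO lines as blocks). The count of 503 in WT at D5 rests on both MR libraries: without either of them it was 0, without CTL replicate 1 it was 10 and without CTL replicate 2 it was 69. It was 130 to 221 without 1 of the 6 WT libraries at D0 or D1, 768 or 1135 without 1 of the KO libraries at D1 CTL or D0, and 1999 with the KO lines as blocks.

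Over all strata (WT D1, KO D1, WT D5 and KO line 2 at D5), 35 members were higher and 25 lower in MR (0.550% against 0.547% of all regions tested, of which 0.314% were higher and 0.233% lower). Only 3 of the 20 members named for it had no overlap between the 7 MR and the 7 CTL libraries. Col18a1 (the collagen that gives rise to endostatin; region 35307 bp from the gene) stood at 79.9 to 95.0 in MR and 24.9 to 67.0 in CTL (score difference 1.24 ± 0.186 SE, limma adjusted p = 0.0279). Fam50b stood at 52.2 to 81.2 against 21.3 to 37.3, and the start of Mthfd2l, a mitochondrial folate enzyme gene, at 2.19 to 14.4 against 19.7 to 54.3 (limma adjusted p = 0.0391). A region 291993 bp from Insig2, a regulator of sterol synthesis, was lower by 50.8 points on average, with values of 0.363 to 54.1 in MR and 51.7 to 96.9 in CTL. The count was 0 without any 1 of the WT libraries other than D5 CTL replicate 2, without which it was 6; it was 1 and 5 without KO line 2 at D1 in MR and in CTL, 118 to 628 without 1 of the other KO libraries, and 1101 with the KO lines as blocks.

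Between D0 and D1 in control medium, 9 members rose and 5 fell in both genotypes together (0.128% against 0.126% of all regions tested, of which 0.0808% rose and 0.0449% fell). Kdm7a, by whose gene for a histone demethylase the region lies at 36196 bp, was at 7.52 to 17.1 in the 4 D0 libraries and at 87.7 and 84.7 in WT and 35.7 and 68.6 in KO at D1 CTL (score difference 1.71 ± 0.246 SE, limma adjusted p = 0.0179). It stood at 37.9 to 49.1 in D1 MR. St18, Pwwp2b, Dip2c, Rybp, Eif3l, Itga5, Ttc39a and Dab2ip also rose, and regions by Atp6ap1l, Gse1, Ank, Cfap77 and Pacsin2 fell; for Dip2c, Eif3l, Itga5, Ttc39a and Ank the D0 and D1 libraries overlapped. The fallen Pacsin2 region (chr15:83471421-83471948, 6811 bp from the gene) is not the promoter that rose by D5. Without 1 library at D0 or D1 CTL the count was 0 or 1 for the 4 WT libraries and 22 to 135 for the 4 KO libraries; without 1 of the 4 WT MR libraries it was 6, without 1 KO D1 MR library 40, and with the KO lines as blocks 285.

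The order of gene-end and distal members changed with the day and medium. The difference of their median percentiles, gene-end minus members over 10 kb away, was −8.0 and −6.0 in WT D0, −3.5 and −4.1 in WT D1 CTL and −3.5 and −1.6 in WT D1 MR. At D5 it was 7.8 and 8.6 in WT CTL and −1.5 and −0.6 in WT MR, without overlap. The KO libraries stood at −4.7 and −7.5 in D1 CTL, −6.5 and −10.5 in D1 MR, and line 2 at 0.2 in D5 CTL and 1.4 in D5 MR. KO line 1 at D0 stood apart from all others at 13.7, with line 2 in the same condition at −16.3. The WT D5 CTL lists were also the shortest of the WT lists (22465 and 20847 peaks, with median member fold enrichments of 4.30 and 4.05), and the part of this in the gap was not tested.

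**Figure D4:**
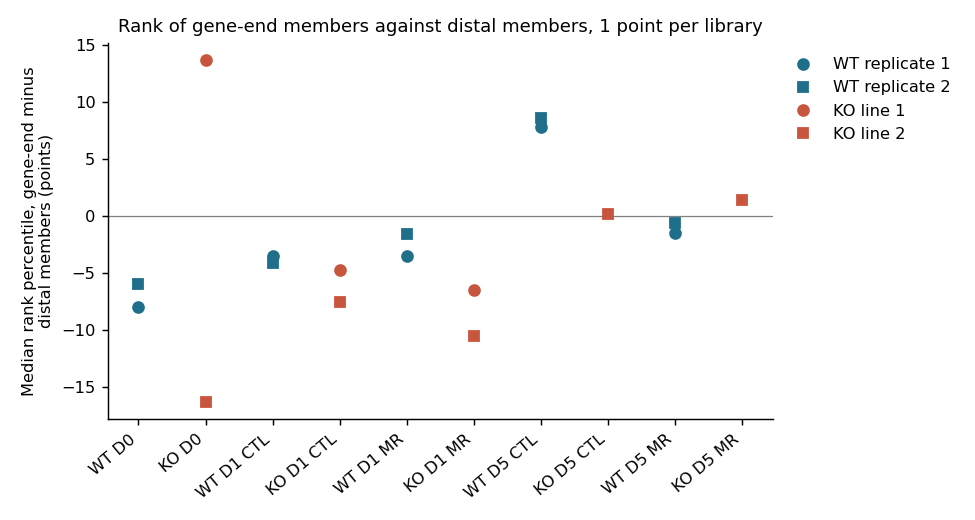
Median rank percentile of gene-end members minus that of members over 10 kb from any gene end (vertical axis, points), 1 symbol per library by group (horizontal axis). WT D5 CTL lies at 7.8 and 8.6, above WT D5 MR at −1.5 and −0.6; KO line 1 at D0 lies at 13.7.

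Promoter letters differed between strong and weak members. In 4823 windows of 300 bases (250 before and 50 after a start) whose start lay in a member, the NFY letters CCAAT or ATTGG occurred in 47.2%, against 38.5% of all 21045 windows, 31.8% of those with a start in a region called in fewer libraries and 37.6% of those in no region. Among members with a median percentile of 80 or more the share was 62.9%, and among those under 20 it was 31.1%. The matches at members began a median of 85.0 bases before the start, and 47.4% of them began 50 to 150 bases before it. The SP letters GGGCGG were in 73.4% of member windows, 65.3% of windows in regions called in fewer libraries and 46.7% of all. In the same order, the ETS letters CCGGAAGT were in 10.6%, 8.75% and 5.20%, and TATAAA in 4.64%, 7.18% and 12.7%. The G and C content was 63.0%, 61.3% and 56.4%. All letters were searched on both strands, and a match is no evidence that the factor binds.

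The same letters split the MR shift in WT at D5. Windows in members that rose held the NFY letters in 73.7% of 57 cases and windows in members that fell in 28.1% of 96. The printed promoters of Fggy, Hdac2 and Gpr157 belong to members of these sets, so they are examples and no separate support. The letters of 12 motifs were searched, and NFY was not alone in differing. The ETS letters were in 17.5% of rising and 6.25% of falling windows, and the SP letters in 63.2% and 78.1%. The G and C content was 56.5% in the windows of risers and 65.2% in those of fallers. Strength differed too: the median percentile was 55.3 over all risers and 32.4 over all fallers, at gene starts or not. The part of G and C content or of strength in the split was not tested. For the D5 shift the shares were 53.4% of 380 rising and 38.0% of 184 falling windows, and the ETS letters occurred in 5.26% of rising and 16.9% of falling windows. For the genotype shift the NFY shares were 36.5% of 85 windows and 37.6% of 109. Several windows can share 1 member, and no test was made.

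**Figure D5:**
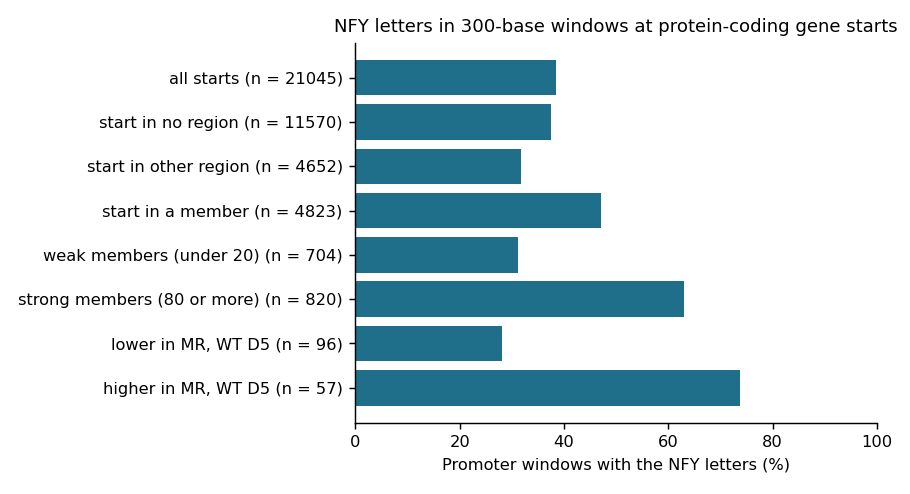
Share of promoter windows with the NFY letters (horizontal axis, %) for sets of protein-coding gene starts (vertical axis, number of windows in brackets). The share is 62.9% at strong and 31.1% at weak members, and 73.7% at members higher and 28.1% at members lower in MR in WT at D5.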

How the data were processed

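Per the labels, lysed C2C12 cell pellets were tagmented and sequenced in 20 libraries; the authors deposited 1 broadPeak list per library on GRCm38 (per the submitters' processing notes). Aligner, peak caller and threshold are not given in the sources used here. The deposited columns hold a score, a fold ratio over local background, −log10 p and −log10 q; read depth is not in the lists. Lists were called per library, so members depend on each library's depth. Lists were merged, and regions ranked by the highest fold ratio, in Python (pandas 2.3.3). limma 3.58.1 fitted normal scores to 10 group means (8 residual df, 7.355 prior df), with the 2 single-library groups, KO line 2 at D5, borrowing the common spread. Gene ends came from RefSeq GRCm38.p6, and starts with strand for 21045 protein-coding windows; other starts were not used here.

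Members, lists and contrasts were chosen with earlier results of these data known. For each tested shift the 10 members with the largest rise and fall in mean percentile that moved the same way in every stratum were named, and a member was named by the gene at whose end it lies, else that holds it, else the nearest. The fit was tested on simulated data. KO line numbers pair libraries because a line is the same cells: deviations from the group means correlated at 0.417 to 0.540 in 3 pairs of conditions.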

Additional observations from a re-analysis of the deposited data

Results flagged for a closer look

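The gap between gene-end and distal members fell with MR at D5 in WT and changed little in KO line 2. MR minus CTL was −9.25 points in WT, where each MR replicate lay below each CTL replicate, and 1.2 points in KO line 2, which has 1 library in each medium; this difference was not tested. The KO value is smaller than the distance between the WT D0 replicates (−8.0 and −6.0), so it shows no clear move. KO line 1 was left out because its D5 lists are too short to rank.

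The MR shift at D5 differed between KO line 2 and WT for 11 members (0.101% against 0.0987% of all regions tested), with 6 differences above 0 and 5 below it, in a limma contrast added after the data were seen. The region by Akap7 (chr10:25128434-25128878), a gene for an anchor of protein kinase A, stood at 50.1 and 55.0 in WT D5 CTL and at 2.54 and 2.18 in WT D5 MR, and in KO line 2 at 28.1 in CTL and 90.7 in MR (score difference 3.95 ± 0.556 SE, limma adjusted p = 0.025). A region inside Triobp (chr15:78960136-78960424), an actin-bundling gene, went the other way, from 30.4 and 30.2 to 85.4 and 77.8 in WT and from 86.6 to 4.55 in KO line 2 (−4.23 ± 0.674, limma adjusted p = 0.0302). Regions by Frmd8 and 1700001O22Rik were also above 0, and those by Plxna1 and Prl5a1 below it. The single KO libraries are assumed to vary like the other groups. The count was 0 without any 1 of the WT libraries at D1 or D5, 2 without 1 WT library at D0, 65 without 1 KO library at D0 and 17 without 1 at D1 CTL.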

How the results depend on the processing

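Under a replicate block on the KO lines the counts of members past the threshold were 2286 for genotype, 1101 for medium, 3214 for D5, 285 for D1, 1999 for medium in WT at D5, 90 for the difference of the medium shift between days and 343 for that between genotypes at D5. That block takes the difference between the KO lines out of the spread that all contrasts share, also those within WT. With every replicate number as a block, where WT numbers share only a number (correlation of deviations −0.0772 to 0.0946), medium gave 99 and D1 gave 24, and the block changed no other count by over 1.5 times. Adding D5 to the genotype contrast gave 2847, and medium at D1 alone gave 0. Ranking by −log10 p gave 96 for medium and 27 for the genotype difference at D5; percentiles in place of scores gave 786 for medium in WT at D5, 5 for the difference between days and 23 for that between genotypes at D5. Exact stratified permutation gave 0 for genotype (216 arrangements, 2254 at an unadjusted p under 0.05) and 0 for medium (432 arrangements, 1943); the smallest p-values it can give are 0.009259 and 0.00463, and the other contrasts have too few arrangements. Leaving out 1 library, or every library of a KO line or WT number (added after the data were seen), gave 0 to 3507 for genotype, 0 to 2337 for medium, 0 to 4225 for D5, 0 to 771 for D1, 0 to 3052 for medium in WT at D5, 0 to 729 for the difference between days, 0 to 3 for genotypes at D1 and 0 to 1093 at D5; the highest counts came without a KO line and 0 without a WT number, which leaves no WT spread. The set held 10909 to 12134 members with 1 library left out, 42.3% to 44.5% of them at gene ends, and 1901 when a peak had to cover 50% of the region. The gene-end share was then 44.8%, and 42.0% for members under 1000 bp, 40.8% at 500 bp and 48.5% at 2 kb. The share called in KO line 1 at D5 under 50% coverage was 0.119% in CTL and 0.706% in MR. With distal members beyond 50 kb the rank gap was 9.14 points in WT D5 CTL and 0.08 in WT D5 MR, which turned its sign. The cause of these changes was not tested. No named member changed direction under any alternative. Read depth is not in the lists, so a region missed in a shallow library cannot be told from a closed one.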
